A study of Mus musculus with 21 samples.

Results

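Among the 7 vehicle-treated mammary tumours of this mouse study, 3 carried a high level of Cnn1 mRNA and 4 a low one, and these 2 sets are compared here across all genes. Cnn1 encodes calponin 1, an actin-binding protein of smooth muscle and of the contractile myoepithelium. The sets were chosen by a measured value: a vehicle tumour with more than 100 Cnn1 counts for each 1000000 counts of its column was called Cnn1-high (replicates 2, 6 and 7), and one below 100 Cnn1-low (replicates 1, 3, 4 and 5). By that measure the tumour just above the limit was replicate 7 with 357.3, and the tumour just below it was replicate 3 with 6.04. The series holds 21 tumours in all.

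All 21 tumours came from WAP-Cre/PIK3CA-H1047R transgenic mice, in which Cre recombinase is driven by the promoter of whey acidic protein, a milk protein gene of the mammary alveolar epithelium, and PIK3CA-H1047R is an activated form of the catalytic PI3K subunit p110alpha. The vehicle tumours received DMSO. The other 14 received BYL719 (alpelisib), an inhibitor of that subunit, 7 of them labelled relapse by treatment and 7 labelled stable (the series' own design text speaks of responding in place of relapse tumours). Poly(A) RNA of whole tumours ground while frozen was sequenced, and neither the age of the mice nor the length of treatment is given in the sources used here. Each title carries a number code, shared by several tumours, that may name an animal, and a digit and letter that may name a gland; the labels do not say so. The 7 vehicle tumours hold 3 such codes, and 2 of the codes hold both Cnn1-high and Cnn1-low tumours. Whether tumours that share a code are independent samples is therefore not known.

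The mammary duct and alveolus have an inner luminal layer, which responds to hormones and makes milk, and an outer basal layer of myoepithelial cells. Myoepithelial cells carry basal keratins and the transcription factor p63, rest on a basement membrane of laminins and type IV collagen, and contract on oxytocin through smooth muscle actin and myosin. Smooth muscle genes of this kind are switched on together through the CArG box, a short DNA element bound by serum response factor (SRF) with cofactors such as myocardin. The same contractile genes are expressed by the smooth muscle and pericytes of vessel walls and by activated fibroblasts, and a bulk tumour sample cannot tell fewer cells of a type from less RNA per cell.

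Promoter sequences of 3 contractile genes are shown because the contractile genes differed together between the sets. They are RefSeq sequences of build GRCm38.p6, from 250 bases before to 50 bases after the transcription start, read 5′ to 3′ on the strand of the gene. Acta2 (smooth muscle alpha-actin) is at chr19:34255324-34255623 on the minus strand, Myl9 (the regulatory light chain of smooth muscle myosin) at chr2:156775214-156775513 on the plus strand, and Cnn1 at chr9:22099003-22099302 on the plus strand. Capitals mark each CArG box, including boxes in which 1 of the central A or T bases is a G or C; the motif reads as itself on the opposite strand, so both strands were searched.
Acta2: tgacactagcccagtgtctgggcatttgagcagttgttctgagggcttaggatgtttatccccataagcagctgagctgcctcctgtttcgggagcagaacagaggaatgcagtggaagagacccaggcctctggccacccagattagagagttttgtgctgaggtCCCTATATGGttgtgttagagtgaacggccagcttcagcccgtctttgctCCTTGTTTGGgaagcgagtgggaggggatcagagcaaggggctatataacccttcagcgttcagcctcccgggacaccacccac
Myl9: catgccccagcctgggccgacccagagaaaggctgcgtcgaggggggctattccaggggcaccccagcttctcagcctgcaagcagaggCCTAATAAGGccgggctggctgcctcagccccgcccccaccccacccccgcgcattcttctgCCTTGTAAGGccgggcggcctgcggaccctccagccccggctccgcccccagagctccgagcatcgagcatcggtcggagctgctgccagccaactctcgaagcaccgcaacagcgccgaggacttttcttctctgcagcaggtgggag
Cnn1: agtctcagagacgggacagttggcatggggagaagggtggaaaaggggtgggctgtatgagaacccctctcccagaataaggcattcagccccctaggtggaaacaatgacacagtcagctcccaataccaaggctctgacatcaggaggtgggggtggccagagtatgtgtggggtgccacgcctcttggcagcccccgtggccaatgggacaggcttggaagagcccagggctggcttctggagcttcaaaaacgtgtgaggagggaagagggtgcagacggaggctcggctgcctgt
The Acta2 window held boxes that begin 84 and 34 bases before the start, each with 1 departure. Myl9 held a full box 161 bases before the start and a box with 1 departure at 99 bases. The Cnn1 window held none of these letters.

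RefSeq promoters were matched for 29 of the 34 genes on the contractile list, in 36 windows. A full CArG box stood in 5 of the 36 windows (13.9%), and a full box or one with 1 departure in 8 (22.2%). Among all 32851 mouse promoters of the same length the shares were 1.63% and 9.98%. Among the promoters of all genes that were higher in the Cnn1-high set as defined below, a full box was in 1.57%, and among those of genes lower there in 1.58%. The full boxes on the contractile list were those of Fhl1, Filip1l, Myl6, Myl9 and Vcl. Of these, Fhl1 and Filip1l were not among the list members higher in the Cnn1-high set. Most contractile genes described below that had a matched promoter held no full box in this window. No promoter was matched for Myh11, Actg2 and Tagln, so these genes were not searched.

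Sequencing depth was alike in the 2 sets, with 21043399 to 24873844 counts per vehicle tumour and 13337848 to 24648463 per treated tumour. Levels are given below as counts per 1000000 (CPM) on libraries scaled by the trimmed mean of M-values (TMM) over the 21 tumours. Epithelial markers were present in every vehicle tumour: Epcam, an adhesion molecule of epithelial cells, ranged from 354 to 988 CPM, and the luminal keratins Krt8 and Krt18 from 141 to 474 and from 226 to 940 CPM. These 3 genes overlapped between the sets. Some tumours stood apart from their own set. Vehicle 3 had the highest levels of cholesterol synthesis, adipocyte and basal keratin genes of the 7, vehicle 7 was the Cnn1-high tumour nearest to the Cnn1-low set, and among the treated tumours stable 1 had the lowest Krt5, Krt14 and Trp63. No pair of vehicle libraries agreed within sampling noise, so no library was present under 2 names, and each was counted as 1 sample. This check cannot show whether tumours that share a title code are independent.

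The markers that name the sets differed by more than an order of magnitude. Cnn1 was at 851, 807 and 400 CPM in vehicle 2, 6 and 7, and at 2.24, 6.09, 1.22 and 5.22 CPM in vehicle 1, 3, 4 and 5. The set means were 686 ± 249 (SD, n = 3) and 3.69 ± 2.33 CPM (SD, n = 4), a log2 difference of 7.53 ± 0.65 (standard error of the edgeR fit, as for all log2 differences below). Vehicle 7 was the lowest of the Cnn1-high set and still far above every Cnn1-low tumour.

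Myh11, the smooth muscle myosin heavy chain, was at 5217, 9041 and 4700 CPM in the Cnn1-high tumours and at 28.6, 78.7, 13.4 and 58.6 CPM in the Cnn1-low ones. Its log2 difference was 7.13 ± 0.69. Acta2 was at 4680, 5322 and 1436 CPM against 68.1, 163, 44.0 and 96.8 CPM, a log2 difference of 5.35 ± 0.62. For both genes the lowest Cnn1-high tumour was vehicle 7, and the highest Cnn1-low tumour was vehicle 3. Actg2, the gamma-actin of smooth muscle, was at 393, 279 and 104 CPM against 2.38, 5.57, 1.26 and 3.76 CPM, a log2 difference of 6.31 ± 0.65. In all 4 markers the sets did not overlap, which the rule fixed for Cnn1 itself, and since the other 3 were read in the same libraries no test is given for them.

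**Figure D1:**
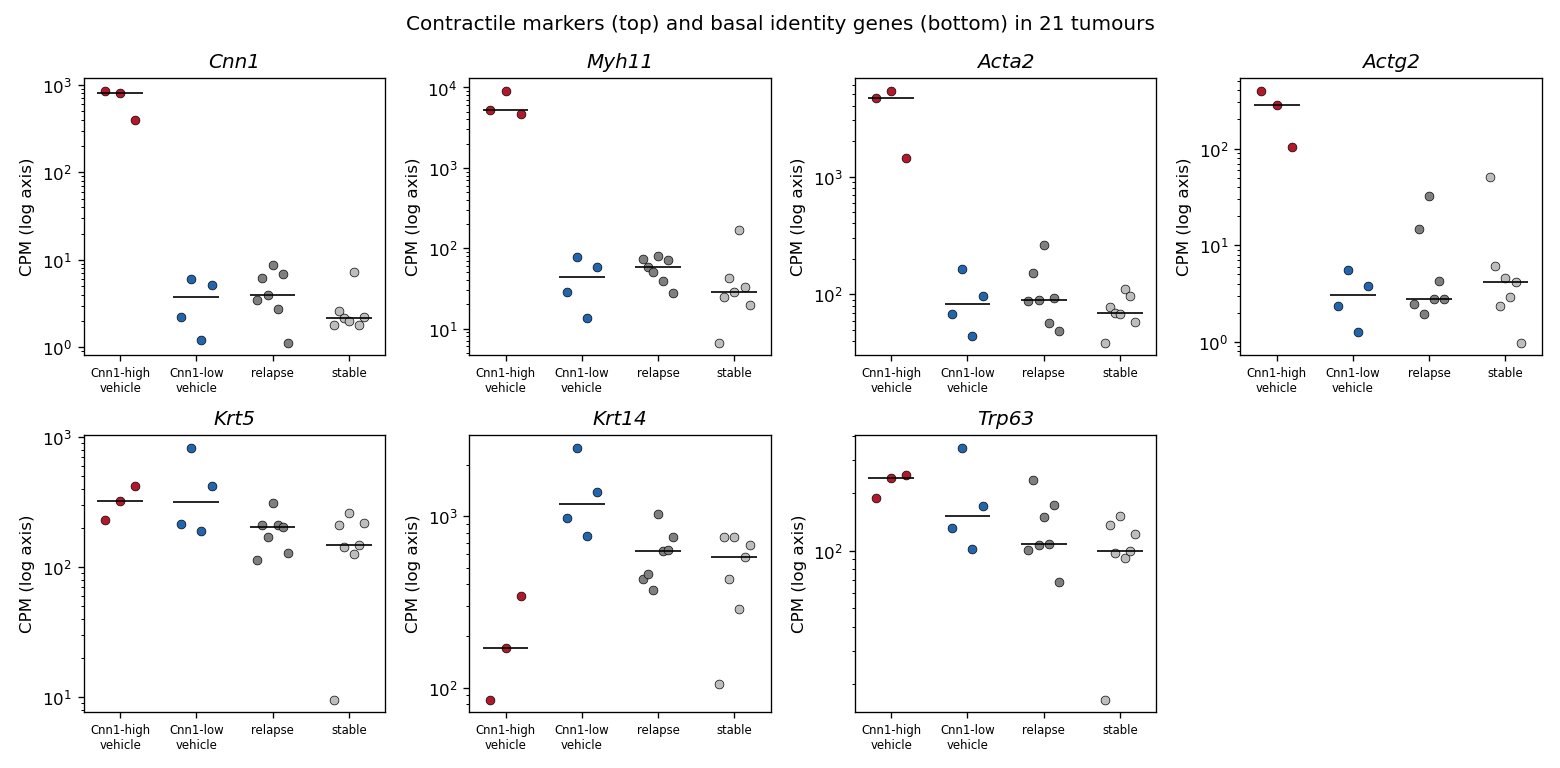
Each point is 1 tumour and each line a group median, with CPM on a log axis, for the 4 contractile markers and 3 basal genes in the Cnn1-high vehicle, Cnn1-low vehicle, relapse and stable groups. The 3 Cnn1-high tumours stand above all other 18 tumours for the contractile markers, with Cnn1 at 400 to 851 CPM against at most 8.67 elsewhere, while Krt5 and Trp63 overlap between the 2 vehicle sets.

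The treated tumours lay with the Cnn1-low set. Cnn1 in the 14 treated tumours had a lowest, median and highest value of 1.13, 2.67 and 8.67 CPM. Myh11 ran from 6.64 through a median of 40.9 to 170 CPM, Acta2 from 38.8 through 83.0 to 260 CPM, and Actg2 from 0.982 through 3.56 to 50.8 CPM. Every treated tumour was below the lowest Cnn1-high tumour for each of the 4 markers. The highest treated Actg2 was in stable 1, which had 1.82 CPM of Cnn1.

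Cnn1-high and Cnn1-low tumours with the same title code differed as the sets did. Within one code, vehicle 2 exceeded vehicle 1 by 8.51 in log2 Cnn1 CPM and by 7.51 in Myh11. Within another, vehicle 6 exceeded vehicle 5 by 7.25 in Cnn1 and 7.27 in Myh11, and vehicle 7 exceeded vehicle 5 by 6.23 and 6.32. The differences therefore stood between tumours that share a code and not only between codes.

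Across the 15575 genes that passed the filter on low counts, 1959 (12.6%) were higher in the Cnn1-high set and 1295 (8.31%) were lower. A gene was counted when its lowest CPM in one set was above its highest in the other and the fitted difference was at least 2-fold; such genes are called apart below. Together they were 20.9% of genes. This background is the measure for each gene list below: a list with near 12.6% of its members higher and 8.31% lower looks like the average gene. Under column totals in place of TMM the counts were 1649 and 1639, so that 50.2% of the apart genes were higher in place of 60.2%, and the median log2 difference of all genes was -0.171 in place of -0.00687. Of the apart genes, 909 higher and 513 lower ones differed at least 4-fold, and 219 and 180 at least 16-fold. The Cnn1-high tumours also stood above all 18 other tumours, treated ones included, for 1058 (54%) of the higher genes, and below all 18 for 512 (39.5%) of the lower genes.

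**Figure D2:**
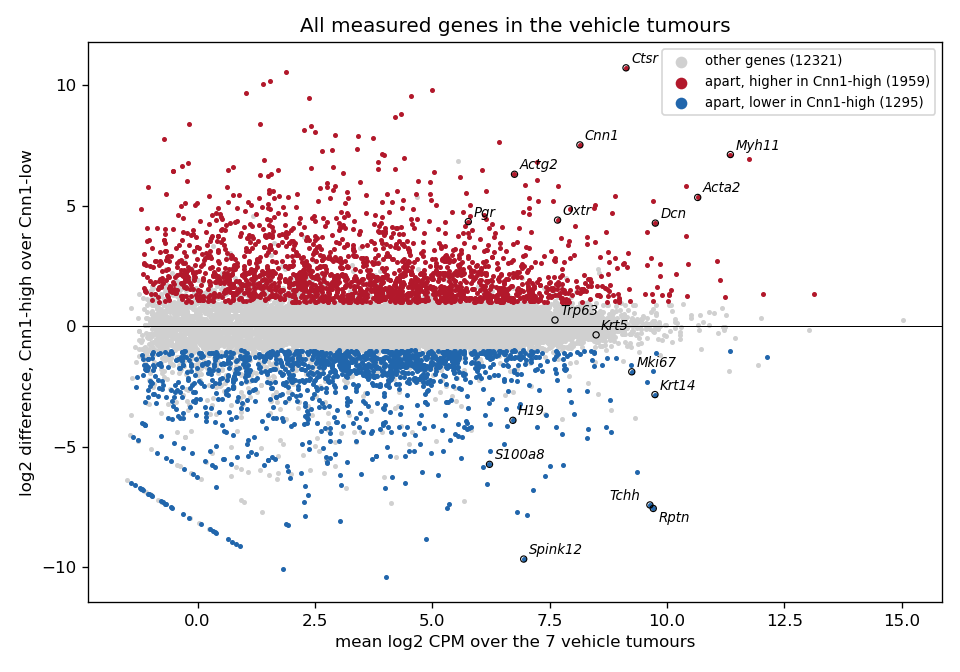
Each point is 1 of 15575 genes, with mean log2 CPM over the 7 vehicle tumours on the x axis and the log2 difference of Cnn1-high over Cnn1-low on the y axis. Red points are the 1959 genes apart and higher in the Cnn1-high set and blue points the 1295 apart and lower; the streaks of blue points at the lower left are genes at or near 0 counts in the Cnn1-high set.

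Distances between tumours followed the sets. Counting genes at least 4-fold apart between a pair of tumours, the 3 pairs within the Cnn1-high set had 206 to 645, the 6 pairs within the Cnn1-low set 83 to 813, and the 12 pairs between the sets 1358 to 2241. The 3 pairs between the sets that share a title code had 1443, 1900 and 2173. Vehicle 1 and vehicle 4 were the nearest pair (83 genes), and vehicle 3 and vehicle 7 the nearest pair between the sets (1358 genes). Vehicle 3 and vehicle 4 share a code and were the farthest pair of the Cnn1-low set (813 genes).

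The smooth muscle contractile list had the broadest difference toward the Cnn1-high set along with the myoepithelial receptors. Of its 34 genes, all measured, 28 were apart and higher, 1 was apart and lower and 5 overlapped, with a median log2 difference of 3.04 beside -0.00687 over all genes. The list was chosen with earlier results of these data known and contains the markers of the rule, so its count is a description. Its summed level was 19634 CPM in vehicle 7, 37112 in vehicle 2 and 45591 in vehicle 6, against 3474 to 5000 in the Cnn1-low tumours and 3679 to 5932 in the treated ones.

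Motor and actin filament genes led the list. Mylk, the kinase that phosphorylates myosin light chain and so starts contraction, was at 3207, 4261 and 2239 CPM against 43.9, 79.1, 33.3 and 72.9 CPM, a log2 difference of 5.81 ± 0.41. Tagln, the actin-binding protein transgelin, was at 2466, 2747 and 635 CPM against 47.2, 76.9, 30.2 and 56.7 CPM (5.20 ± 0.57). Myl9, whose promoter is printed above, was at 681, 799 and 245 CPM against 13, 33.9, 10.1 and 22.1 CPM (4.85 ± 0.57). In each of the 3 genes vehicle 7 was lowest of its set and still severalfold above the highest Cnn1-low tumour.

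Genes that anchor or tune the contractile apparatus were also apart. Synpo2, an actin-bundling protein of the Z-line and dense body, was at 334, 562 and 177 CPM against 3.66, 7.08, 2.87 and 7.33 CPM (6.08 ± 0.53). Kcnmb1, the smooth muscle beta subunit of the large-conductance potassium channel, was at 50.9, 41.1 and 24.1 CPM against 0.320, 1.56, 0.392 and 1.10 CPM (5.51 ± 0.57). Ppp1r14a, an inhibitor of myosin phosphatase, was at 29.5, 41.9 and 13.7 CPM against 0.411, 1.37, 0.174 and 0.641 CPM (5.44 ± 0.66). In all 3 of these low-level genes the lowest Cnn1-high tumour was vehicle 7.

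Among widely expressed cytoskeletal genes, Flna, an actin crosslinker of most cells, had a log2 difference of 1.94 ± 0.31, Myl6, a light chain shared with non-muscle myosin, 1.3 ± 0.33, and Vcl (vinculin), an adhesion-site protein, 1.03 ± 0.20, the last near the 2-fold limit. Smtnl2, a relative of smoothelin, was the 1 list member that was lower, at 2.42, 2.14 and 1.86 CPM against 10.2, 7.41, 8.27 and 5.59 CPM (-1.88 ± 0.27). Des, the intermediate filament of muscle, overlapped, at 3.61, 2.33 and 2.07 CPM against 1.92, 3.78, 16.8 and 13.8 CPM. Desmin thus did not follow most other contractile genes. Its highest levels were in vehicle 4 and 5, which also had the most skeletal muscle RNA of the 7. Skeletal muscle genes summed to 1406 and 1348 CPM there, against 250 to 340 CPM in the other vehicle tumours. The part of skeletal muscle in the Des levels was not tested.

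The transcriptional regulators of these genes were mostly not apart. On that list 3 of 14 measured genes were apart and higher and none lower, a share of 21.4%, and the median log2 difference was 0.30. Srf itself was at 38.7, 45.6 and 21.9 CPM against 20.7, 27.8, 22.3 and 22.9 CPM, with overlap. Myocd, the myocardin cofactor, was below 1 CPM in all 7 tumours, at 0.685, 0.186 and 0.319 CPM against 0.366, 0.331, 0.696 and 0.595 CPM. The 3 that were apart were Mef2c, a muscle transcription factor (362, 287 and 157 CPM against 37.6 to 57.6 CPM, log2 difference 2.46 ± 0.29), Ctgf (1.54 ± 0.30), a target of YAP and TEAD, and the TEAD factor Tead1 (1.01 ± 0.18).

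The receptors and ion handling genes through which myoepithelium contracts were apart in 10 of 12 measured cases, all higher, with a median of 1.92. Oxtr, the oxytocin receptor, was at 706, 494 and 203 CPM against 21.9, 35.7, 13 and 16.9 CPM (4.41 ± 0.51). Chrm3, the M3 muscarinic receptor, was at 14.6, 27.8 and 31.5 CPM against 0.731, 2.08, 1.65 and 1.74 CPM (3.97 ± 0.41). Adra1a, an alpha-1 adrenergic receptor, was at 46.5, 55.2 and 18.6 CPM against 1.60, 3.87, 2.35 and 3.16 CPM (3.86 ± 0.44). The order within the Cnn1-high set differed between these receptors, with vehicle 7 lowest for Oxtr and Adra1a and highest for Chrm3. Prkg1, the cyclic GMP-dependent kinase of smooth muscle, had a log2 difference of 3.16 ± 0.45.

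The basal keratins did not go with the contractile genes. Of 7 measured, none was apart and higher and 4 were apart and lower (57.1%), with a median log2 difference of -2.84. These 4 were Krt14 and the keratins Krt16, Krt6a and Krt6b. The last of these, described in the next paragraph, are keratins of stressed or activated epidermis, so the share of 57.1% is not one of basal keratins alone. Krt5 was at 229, 323 and 421 CPM in the Cnn1-high set and at 215, 824, 191 and 419 CPM in the Cnn1-low set, with overlap. Its usual partner Krt14 was apart and lower, at 84.9, 171 and 341 CPM against 977, 2502, 771 and 1394 CPM (-2.84 ± 0.60). So the 2 keratins that pair in basal filaments differed in how they stood between the sets.

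The keratins of stressed or activated epidermis were lower by more. Krt16 was at 3.02, 7.17 and 56.6 CPM against 527, 726, 235 and 722 CPM (-4.65 ± 1.10). Krt6a and Krt6b, near-identical genes between which short reads may be divided uncertainly, had log2 differences of -4.18 ± 1.31 and -4.47 ± 1.18. Vehicle 7 lay highest of the Cnn1-high set for each of these keratins, 110 CPM for Krt6a beside 4.48 and 6.38 CPM in vehicle 2 and 6. Without vehicle 7 the log2 differences were -6.77 for Krt16, -7.07 for Krt6a and -6.75 for Krt6b, so the size of the keratin difference varied within the Cnn1-high set.

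Other genes of basal identity were mixed. Of 19 measured, 7 were apart and higher, 2 lower, and 10 overlapped, with a median of 0.86. Trp63, which encodes p63, overlapped at 188, 240 and 251 CPM against 132, 346, 102 and 171 CPM. Mme (CD10), a surface peptidase of myoepithelium, was at 998, 1257 and 389 CPM against 169, 83.9, 142 and 150 CPM (2.68 ± 0.41). Nrg1, a ligand that basal cells present to luminal ErbB receptors, was at 43.6, 51.6 and 29.99 CPM against 5.57, 16.2, 4.13 and 6.78 CPM (2.34 ± 0.47). Bcl11b, a zinc finger factor of basal stem cells, was lower, at 4.34, 5.64 and 15.8 CPM against 53.6, 113, 45.2 and 67.8 CPM (-3.04 ± 0.56, and -3.82 without vehicle 7), and so was Lgr5 (-2.28 ± 0.42), a receptor of Wnt-responsive stem cells. Members of the same identity list thus stood on both sides.

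Basement membrane and adhesion genes were largely higher. Of 30 measured, 19 were apart and higher (63.3%) and 2 lower, with a median of 1.37. Nid1 (nidogen), which links laminin to collagen, was at 1442, 616 and 653 CPM against 68.4, 169, 72.8 and 108 CPM (3.10 ± 0.43). Lama1, a laminin alpha chain, was at 209, 416 and 156 CPM against 22.3, 33.7, 37.4 and 39.6 CPM (2.96 ± 0.36). Sparc, a collagen-binding matrix protein, was at 5820, 3895 and 3282 CPM against 481, 908, 515 and 708 CPM (2.72 ± 0.30). The 2 type IV collagen chains present in most basement membranes, Col4a1 and Col4a2, had log2 differences of 2.53 ± 0.38 and 2.59 ± 0.33.

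The 2 lower members had other roles. Tnc (tenascin C), a matrix protein of wounds and tumours, was at 41.4, 47.3 and 151 CPM against 357, 521, 392 and 764 CPM (-2.68 ± 0.54, and -3.53 without vehicle 7). Itgb4, the hemidesmosome integrin, was at 88.1, 69.0 and 114 CPM against 155, 186, 164 and 226 CPM (-1.03 ± 0.21). Its partner Itga6 was not counted as apart, with a log2 difference of 0.34 ± 0.15.

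**Figure D3:**
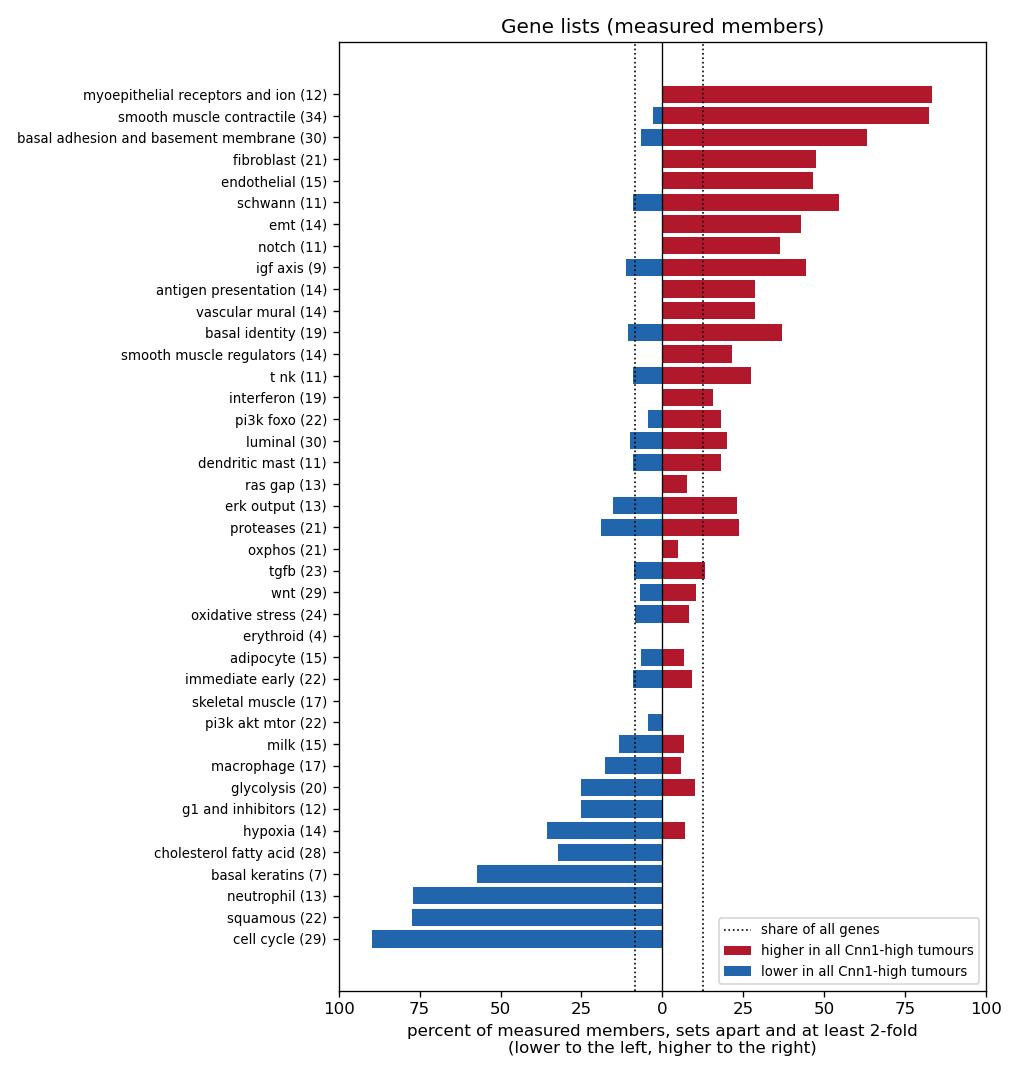
Bars give the percent of measured genes of each list (number in parentheses) that were apart and at least 2-fold, higher in the Cnn1-high set to the right in red and lower to the left in blue; dotted lines mark the shares of all genes, 12.6% and 8.31%. Contractile genes and myoepithelial receptors reach 82.4% and 83.3% on the right, and squamous and cell cycle genes 77.3% and 89.7% on the left.

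Genes of squamous differentiation, the programme of cornifying epidermis, were lower in the Cnn1-high set. Of 27 listed, 24 were in the table and 22 passed the filter; 17 of the 22 (77.3%) were apart and lower, none was higher, and 5 overlapped. Their median log2 difference was -3.87, and all 22 were below 0. Summed over the list the levels were 255, 309 and 870 CPM in vehicle 2, 6 and 7 against 1525 to 4756 CPM in the Cnn1-low tumours. The treated tumours ran from 137 to 1687 CPM and so covered the Cnn1-high range, but of the Cnn1-low tumours only the lowest, vehicle 4, lay within that range.

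Krt1, a keratin of the spinous epidermis, was at 0.640, 0.186 and 1.81 CPM against 14.6, 139, 17.8 and 76.6 CPM (-6.17 ± 1.19). Sprr1b, a cornified envelope precursor, had no count in vehicle 2 and 6 and 0.744 CPM in vehicle 7, against 5.89, 25.9, 2.26 and 13.8 CPM (-5.65 ± 1.42). Krt13, an oesophageal-type keratin, was at 0.0457, 0 and 0.0532 CPM against 3.29, 0.378, 1.74 and 2.79 CPM, and Lce3c at 0, 0 and 0.0532 CPM against 1.28, 1.37, 0.261 and 1.28 CPM. The Cnn1-high values of Krt13 and Lce3c rest on at most 1 count per tumour and those of Sprr1b on 14 counts in vehicle 7, so the size of these ratios is poorly fixed. Without vehicle 7 the log2 difference of Sprr1b was -11.04.

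The lowest log2 differences among all well-expressed genes were of the same kind. Rptn (repetin), an epidermal matrix protein, was at 4.57, 3.59 and 16.2 CPM against 3437, 356, 851 and 1416 CPM (-7.56 ± 1.13). Tchh (trichohyalin), of the hair follicle sheath, was at 8.5, 5.96 and 11.1 CPM against 1496, 60.4, 824 and 3379 CPM (-7.42 ± 1.38). Hrnr (hornerin) was at 0.777, 0.373 and 2.02 CPM against 353, 27.8, 102 and 453 CPM (-7.82 ± 1.27). Within the Cnn1-low set vehicle 3 had the lowest level of all 3, and it was still above every Cnn1-high tumour.

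Spink12, a protease inhibitor gene, was at 0.457, 0.0932 and 0.266 CPM against 558, 5.95, 211 and 122 CPM (-9.66 ± 1.77), and Tmprss11d, a transmembrane airway-type protease, at 0.0914, 0.0932 and 0.160 CPM against 111, 2.74, 42.4 and 55.9 CPM (-8.81 ± 1.48). Il1f6, an interleukin-36 cytokine of keratinocytes, had 1 count in the Cnn1-high set, in vehicle 2, against 63.0, 0.661, 19.3 and 33.8 CPM. Vehicle 3 was again far below the other Cnn1-low tumours for these genes. Dsc1 (desmocollin 1, -6.78 ± 1.07, and -9.11 without vehicle 7), Prr9 (-7.53 ± 1.5) and Sdr9c7 (-11.33 without vehicle 7), all expressed in cornifying epithelium, were also among the 12 lowest, as were 2 genes of other kinds: Peg10, an imprinted gene of retrotransposon origin, at 1.32, 0.606 and 1.01 CPM against 278, 3.12, 516 and 17.8 CPM, and Saa3, an acute-phase protein gene, at 0.502, 0.326 and 0.532 CPM against 109, 5.34, 165 and 18.3 CPM. The remaining one was Acod1, the itaconate-producing enzyme of activated myeloid cells (-6.73 ± 1.27, and -9.96 without vehicle 7).

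Cell division genes were lower in the Cnn1-high set, with 26 of 29 measured (89.7%) apart and lower, none higher, and the other 3 not overlapping either but under 2-fold. The median log2 difference was -1.76, with a range from -2.41 to -0.80. Mki67, which marks cycling cells, was at 213, 151 and 387 CPM against 1098, 797, 888 and 899 CPM (-1.89 ± 0.32). Ccnb1 (cyclin B1) was at 6.62, 6.34 and 4.68 CPM against 30.8, 27.3, 37.3 and 28.9 CPM (-2.41 ± 0.19), and Birc5 (survivin), a mitotic inhibitor of apoptosis, at 7.35, 5.96 and 12.2 CPM against 43.8, 29.9, 40.9 and 36.8 CPM (-2.17 ± 0.28). The Cnn1-low values of these genes lay close together, so that the spread within a set was small beside the difference. Summed over the list, the Cnn1-high tumours had 605 to 1046 CPM, the Cnn1-low 2216 to 2911 CPM and the treated 949 to 4772 CPM.

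Genes of the G1 phase differed less. Of 12 measured, 3 were apart and lower and none higher. The cyclin D1 gene Ccnd1 overlapped at 197, 398 and 246 CPM against 407, 166, 326 and 419 CPM. Cdkn1a (p21), an inhibitor of cyclin-dependent kinases, was itself lower, at 28.4, 24.1 and 17.1 CPM against 81.4, 61.8, 48.5 and 75.5 CPM (-1.54 ± 0.24), and Cdkn2b (p15) and Cdk6 had log2 differences of -1.37 ± 0.32 and -1.10 ± 0.13. Myc, a growth-promoting transcription factor, was lower as well (-1.41 ± 0.19), at 24.3, 15.9 and 20.2 CPM against 57.0, 44.6, 62.8 and 48.0 CPM.

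**Figure D4:**
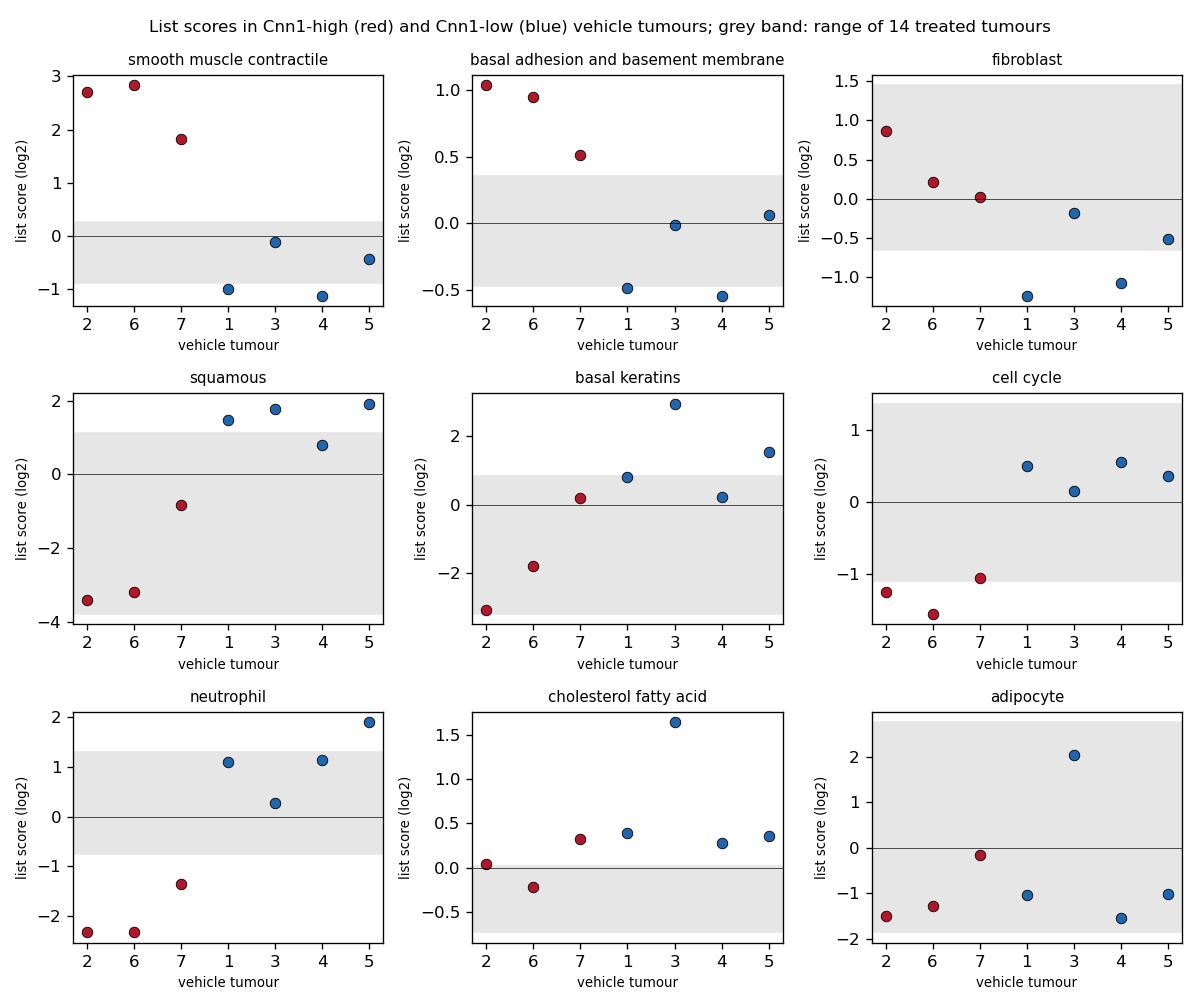
Each point is the score of 1 vehicle tumour (red Cnn1-high, blue Cnn1-low) for 9 gene lists, the mean over the measured members of log2 CPM minus the mean of that gene over the 21 tumours; grey bands give the range of the 14 treated tumours. Contractile scores are 1.82 to 2.83 in the Cnn1-high tumours, above the treated range, whereas vehicle 3 alone is high for cholesterol and fatty acid (1.64) and adipocyte genes (2.04).

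Neutrophil genes and the chemokines that draw neutrophils were lower in the Cnn1-high set. Of 13 measured of 18 listed, 10 were apart and lower (76.9%) and none higher, with a median of -3.54. S100a8, the calprotectin subunit most abundant in neutrophils but also made by inflamed epidermis, was at 0.411, 2.05 and 5.21 CPM against 162, 57.0, 107 and 208 CPM (-5.73 ± 0.88). Cxcl5, a ligand of the receptor Cxcr2, was at 0.914, 0.419 and 1.38 CPM against 29.7, 9.68, 25.8 and 51.2 CPM (-5.02 ± 0.69). Cxcl3 had no count in the Cnn1-high set, against 1.19, 0.236, 1.96 and 1.79 CPM, and the median of the list was the same with Cxcl3 set to a floor of 3 counts over the set. Cxcr2 itself, carried by neutrophils, was at 0.274, 0.652 and 1.54 CPM against 8.04, 4.06, 7.05 and 16.4 CPM (-3.45 ± 0.71). Summed levels of the list were 61.3 to 81.6 CPM against 243 to 603 CPM.

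Other immune lists gave no single direction. Among macrophage genes 1 of 17 was higher (Apoe, 1.21 ± 0.36, a lipid carrier also made by other cells) and 3 lower, and the macrophage-defining Adgre1 and Csf1r overlapped. Lyz2, the myeloid lysozyme, was lower, at 220, 232 and 288 CPM against 613, 2353, 594 and 1246 CPM (-2.30 ± 0.52). The T cell receptor signalling genes Cd3d, Cd3e and Cd3g were higher at low levels, Cd3g at 6.76, 5.17 and 10.3 CPM against 2.65, 1.94, 2.52 and 1.37 CPM (1.79 ± 0.33), and Ctla4, an inhibitory receptor of T cells, was lower. Among antigen presentation genes 4 of 14 were higher and none lower, all of them class II genes: H2-Eb1 was at 154, 215 and 167 CPM against 35.2, 40.3, 61.5 and 47.0 CPM (1.94 ± 0.21). Among interferon-induced genes the 3 apart were Ifit1, Ifit2 and Ifit3, of 19 measured. On the dendritic and mast cell list 2 of 11 genes were higher and 1 lower, on the B and plasma cell list 1 of 2 was lower, and of 4 erythroid genes none was apart.

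Markers of stromal and vessel cells stood higher beside the contractile genes. Of 21 fibroblast genes measured 10 were apart and higher and none lower (median 1.07), and their summed level was 8098 to 15935 CPM in the Cnn1-high set against 2965 to 7647 in the Cnn1-low set and 3264 to 13840 in the treated tumours. Dcn (decorin), a collagen-binding proteoglycan, was at 2264, 2058 and 1592 CPM against 94.4, 114, 109 and 85.0 CPM (4.28 ± 0.19), with at most 521 CPM in a treated tumour. Serpinf1, a secreted serpin of fibroblasts, had a log2 difference of 2.63 ± 0.40, and the collagen gene Col3a1 one of 2.10 ± 0.45. The fibroblast score of the Cnn1-high tumours lay within the treated range, in contrast to their contractile score. None of the 21 fibroblast genes was at 0 in any vehicle tumour, and the part of these cells in the contractile difference was not tested.

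Endothelial genes were higher in 7 of 15 cases and lower in none (median 1.19; summed 486 to 845 CPM against 314 to 386 CPM). Vwf, the von Willebrand factor of vessel lining, was at 37.0, 98.8 and 58.9 CPM against 12.9, 20.7, 13.1 and 17.9 CPM (1.99 ± 0.34), and Pecam1, a junction molecule of endothelium, at 112, 85.5 and 47.5 CPM against 35.5, 39.0, 29.2 and 38.6 CPM (1.19 ± 0.27). Vascular mural genes were higher in 4 of 14 and lower in none (median 1.24; summed 426 to 1058 CPM against 270 to 387 CPM). Of the 14 mural genes, 12 had a log2 difference above 0. The pericyte markers Rgs5 and Pdgfrb overlapped, Rgs5 at 99.5, 44.4 and 20.4 CPM against 38.8, 45.6, 24.0 and 36.9 CPM. Rgs4 (3.06 ± 0.90, and 0.91 without vehicle 2), Cox4i2 (2.37 ± 0.47) and Heyl (1.86 ± 0.40) of the same list were apart and higher. Mrvi1, a calcium-release regulator of smooth muscle, was the mural gene with the largest difference, at 131, 153 and 67.3 CPM against 3.29, 6.38, 2.70 and 4.95 CPM (4.74 ± 0.40). The part of vessel cells in the contractile difference was not tested.

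Schwann cell genes were apart in 7 of 11 cases, 6 higher and 1 lower (median 1.39; summed 409 to 688 CPM against 241 to 350 CPM). Sox10, a factor of Schwann cells and of mammary epithelium, did not reach 2-fold (0.70 ± 0.27). Of genes that mark mesenchymal states, 6 of 14 were higher and none lower, among them Cdh2 (N-cadherin) at 217, 152 and 81.3 CPM against 14.9, 16.2, 14.5 and 20.8 CPM (3.17 ± 0.32), S100a4 (3.86 ± 0.66) and Zeb1 (2.48 ± 0.28), a repressor of epithelial genes. Skeletal muscle genes were apart in none of 17 cases, though 15 of the 17 were below 0, with a median of -3.14. Their sum was high in vehicle 4 and 5 alone, at 1406 and 1348 CPM. Adipocyte genes were apart in 2 of 15 cases, 1 each way. The adipocyte sum was 1489 CPM in vehicle 3 and 204 to 417 CPM in the other 6.

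Luminal genes mostly overlapped. Of 30 measured, 6 were apart and higher (20%), 3 lower (10%) and 21 overlapped. Pgr, the progesterone receptor, was at 189, 119 and 66.6 CPM against 8.32, 6.42, 6.70 and 2.93 CPM (4.34 ± 0.45). Foxa1, the pioneer factor of the oestrogen receptor, was at 37.0, 87.7 and 140 CPM against 2.65, 7.60, 2.26 and 4.85 CPM (4.34 ± 0.58). Cited1, a coactivator of that receptor, was at 28.6, 72.4 and 45.7 CPM against 0.457, 2.36, 0.957 and 1.37 CPM (5.23 ± 0.55), and the receptor gene Esr1 at 54.4, 113 and 84.0 CPM against 19.4, 39.6, 19.9 and 29.1 CPM (1.62 ± 0.33). The highest Cnn1-high tumour was vehicle 2 for Pgr, vehicle 7 for Foxa1 and vehicle 6 for Cited1 and Esr1, so these genes did not follow one order. Prlr, the prolactin receptor (2.85 ± 0.35), and Tbx3 (1.94 ± 0.21) completed the 6.

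The 3 lower luminal genes were Ovol1, an epithelial transcription factor, at 1.23, 1.3 and 2.18 CPM against 30.2, 25.9, 21.4 and 29.6 CPM (-4.10 ± 0.28), Elf5 (-1.35 ± 0.41), the alveolar factor of the secretory lineage, and Esrp1 (-1.03 ± 0.20), a splicing regulator of epithelia. Among milk genes 1 of 15 was higher, the lactoperoxidase gene Lpo (1.96 ± 0.46), and 2 lower. Wap, the gene whose promoter drives Cre in these mice, was at 0.137, 0.140 and 0.585 CPM against 2.01, 3.12, 9.40 and 2.75 CPM (-3.93 ± 0.82), and Lalba (alpha-lactalbumin) had a log2 difference of -2.84 ± 0.74, and of -1.69 with the title code as a block. Without vehicle 7 the difference of Wap was -4.92. The caseins Csn2 and Csn3 overlapped, Csn3 at 1861, 1677 and 2306 CPM against 1473, 1545, 2596 and 1317 CPM. Milk genes as a list thus gave shares of 6.67% and 13.3%, beside 12.6% and 8.31% over all genes.

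Genes of the pathway that the transgene and the drug act on differed little. Of 22 PI3K, AKT and mTOR genes none was higher and 1 was lower, Pik3cb (p110beta), at 31.1, 26.2 and 28.6 CPM against 105, 51.8, 93.0 and 79.6 CPM (-1.53 ± 0.24). Pik3ca, whose reads may include the transgene where its sequence matches, overlapped at 478, 402 and 622 CPM against 479, 386, 505 and 359 CPM. A further list held genes that FOXO factors or PI3K inhibition are known to raise, and FOXO genes. Of its 22 measured genes 4 were higher and 1 lower (18.2% and 4.55%). The lower one, itself a FOXO factor gene, was at few counts and barely apart. It stood at 0.548, 0.186 and 0.266 CPM against 0.822, 0.567, 1.74 and 1.79 CPM. Pik3ip1, an inhibitor of PI3K, was at 32.0, 37.3 and 20.8 CPM against 5.85, 8.88, 6.01 and 9.98 CPM (1.96 ± 0.28). Txnip, a brake on glucose uptake, was at 407, 745 and 467 CPM against 114, 174, 150 and 177 CPM (1.80 ± 0.25). Irs2, an insulin receptor adaptor on the same list, overlapped (-0.28 ± 0.28). Pik3ip1 in the Cnn1-high tumours lay within the treated range of 12.1 to 40.4 CPM and the Cnn1-low tumours lay below it. The same held for Txnip, with a treated range of 225 to 799 CPM. Irs2 differed, since all Cnn1-high tumours, at 16.7, 22.8 and 17.0 CPM, lay below its treated range of 30.1 to 69.2 CPM.

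Nf1, a GTPase-activating protein for RAS, was at 459, 449 and 367 CPM in the Cnn1-high set and 274, 271, 247 and 284 CPM in the Cnn1-low set. The sets did not overlap, but the log2 difference of 0.65 ± 0.12 was under the 2-fold limit; non-overlap in that direction with no limit on the fold held for 21.7% of all genes. Of 13 genes of this family Rasa3 alone was apart, at 177, 202 and 82.4 CPM against 24.5, 62.1, 25 and 43.3 CPM (1.98 ± 0.42). Of 13 genes induced by ERK, 3 were higher, led by Etv1 (2.85 ± 0.58, and 1.88 without vehicle 6), and 2 lower, Dusp4 (-1.5 ± 0.36) and Ier3 (-1.36 ± 0.26).

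Notch and insulin-like growth factor (IGF) genes had more members apart than the average gene. Of 11 Notch genes 4 were higher and none lower, led by the target genes Hey2, at 37.3, 47.0 and 71.1 CPM against 6.17, 23.2, 4.26 and 16.7 CPM (2.03 ± 0.58), and Hey1 (1.98 ± 0.44). Of 9 IGF axis genes 4 binding proteins were higher, Igfbp6, with levels of 11.6, 41.2 and 2.82 CPM against 1.01, 2.46, 1.44 and 2.61 CPM, by 3.29 ± 0.82 and Igfbp5, by 1.33 ± 0.34, at 15316, 8237 and 19174 CPM against 4422, 7968, 4416 and 5650 CPM. Without vehicle 6 the difference of Igfbp6 was 1.93. H19, an imprinted non-coding RNA, was lower, at 6.90, 9.32 and 20.6 CPM against 192, 101, 241 and 195 CPM (-3.90 ± 0.49). Transforming growth factor beta genes (3 higher and 2 lower of 23) and Wnt genes (3 higher and 2 lower of 29) gave shares of 13% and 8.7% and of 10.3% and 6.9%, close to those of all genes.

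Metabolic genes were lower in part. Of 28 cholesterol and fatty acid synthesis genes 9 were lower (32.1%) and none higher, with a median of -0.71. Dhcr7, a reductase late in cholesterol synthesis, was at 13.3, 9.88 and 16.5 CPM against 72.7, 115, 57.3 and 62.0 CPM (-2.55 ± 0.31). Vehicle 3 had the highest level of this gene and 20679 CPM summed over the list, against 3570 to 6499 CPM in the other 6 tumours. Of 14 hypoxia genes 5 were lower, led by Egln3 (-1.79 ± 0.33), and Epas1, which encodes HIF-2alpha, was higher (1.75 ± 0.37). Of 20 glycolysis genes 5 were lower, Slc16a3, a lactate exporter, most of all (-2.59 ± 0.52), and 2 higher, while of 21 respiratory chain genes 1 was apart (Cox6c, 1.17 ± 0.19). Of 24 oxidative stress genes and 22 immediate early genes 2 were higher and 2 lower on each list.

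Matrix proteases stood on both sides. Of 21, 5 were higher and 4 lower. Timp3, an inhibitor of metalloproteinases bound to matrix, was at 4003, 2595 and 2458 CPM against 177, 260, 188 and 274 CPM (3.74 ± 0.26), and above the treated maximum of 685 CPM. Mmp12, the macrophage elastase, was at 12.2, 10.4 and 65.9 CPM against 363, 645, 306 and 904 CPM (-4.24 ± 0.83, and -5.63 without vehicle 7), and Mmp10 was also lower (-4.03 ± 0.76). The higher genes were the proteases Mmp2, Mmp19 and Adamts2 and the inhibitors Timp2 and Timp3, and the lower ones were all proteases. Proteases thus stood on both sides, and both inhibitors that were apart were higher.

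The genes highest in the Cnn1-high set over all others were not contractile ones. Ctsr, a cathepsin known from the placenta, was at 117, 2295 and 1684 CPM against 0.0457, 2.31, 0.479 and 0.366 CPM (10.73 ± 1.44), and its neighbour Ctsj at 7.40, 67.5 and 94.6 CPM against 0 to 0.174 CPM (9.57 ± 1.16); reads of these similar genes may be divided uncertainly. Spock3, a brain proteoglycan, was at 103, 91.3 and 39.9 CPM against at most 0.236 CPM (9.82 ± 0.73). Coch (cochlin), a matrix protein of the inner ear, was at 74.6, 4.19 and 54.9 CPM against at most 0.229 CPM (8.67 ± 1.13). The cathepsins were lowest in vehicle 2 and Coch in vehicle 6, so the order within the set was not that of Cnn1. The size of these differences is poorly fixed: with the title code as a block it was 13.81 for Spock3 and 12.86 for Ctsj, and without vehicle 3 that of Spock3 was 11.08.

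Genes of synapses and nerve were among the same 12. Nlgn1 (neuroligin 1), an adhesion molecule of synapses, was at 56.5, 64.1 and 26.6 CPM against at most 0.189 CPM (8.81 ± 0.59), and Gria4, a glutamate receptor subunit, at 173, 267 and 182 CPM against 0.685, 1.51, 0.566 and 1.37 CPM (7.64 ± 0.39). Pex5l, which regulates pacemaker channels, and Enpp6, a choline phosphodiesterase of oligodendrocytes, had log2 differences of 7.35 ± 0.37 and 7.12 ± 0.40. Ido1, which degrades tryptophan, was at 55.2, 8.25 and 33.8 CPM against at most 0.261 CPM (7.82 ± 0.92, and 10.4 with the title code as a block), and Fam90a1a, a member of a repeated family, at 15.9, 37.2 and 24.7 CPM against at most 0.331 CPM (7.88 ± 0.82). Cnn1 and Myh11 were the other two of the 12.

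The 14 treated tumours, which the rule did not use, allowed a test of which genes go with Cnn1. With the group (relapse or stable) as a term, edgeR's quasi-likelihood test called no gene of 15399 (0% in either direction) for a slope on log2 Cnn1 CPM at an adjusted p under 0.05; the lowest Benjamini-Hochberg adjusted p was 0.1181, and 1826 genes had an unadjusted p under 0.05. DESeq2's Wald test with the same terms called 176, of them 85 positive and 91 negative, so the count depends on the tool, and without stable 1 edgeR called 3, all negative. By edgeR the slope of Myh11 was 0.90 ± 0.21 log2 units per log2 unit of Cnn1 (standard error; adjusted p = 0.1902) and that of Acta2 0.64 ± 0.15 (adjusted p = 0.1902); DESeq2 gave 0.90 (adjusted p = 0.02244) and 0.64 (adjusted p = 0.01194). The edgeR slope of Actg2 was 0.73 ± 0.68 (adjusted p = 0.7098 in edgeR). Nothing in the labels says that the tumours came from separate animals, so these p-values measure the spread between samples. Cnn1 spanned 1.13 to 8.67 CPM in these tumours, a far smaller range than between the vehicle sets.

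For the 3 other markers alone, correlations with log2 Cnn1 over the 14 tumours were tested by permutation with 100000 resamples, two-sided and adjusted over the 3. Myh11 gave Pearson r = 0.756 (permutation p = 0.00108, adjusted 0.00162) and Spearman rho = 0.811 (p = 0.0007, adjusted 0.0021). Acta2 gave r = 0.804 (permutation p = 0.00022, adjusted 0.00066) and rho = 0.719 (p = 0.00513, adjusted 0.00769). Actg2 gave r = 0.234 (permutation p = 0.424) and rho = 0.103 (p = 0.727). Myh11 and Acta2 thus went with Cnn1 across tumours of low contractile level, and for Actg2 no relation was detected, with r from -0.00356 without relapse 4 to 0.518 without stable 1 (permutation, adjusted p = 0.0684). The 14 tumours hold 9 title codes, and tumours that share one may not be independent.

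Without relapse 4 and stable 5, the 2 tumours farthest from the median of Cnn1, r was 0.65 for Myh11 (permutation, adjusted p = 0.0317) and 0.722 for Acta2 (adjusted p = 0.0242), while the rho of Acta2, 0.566, no longer passed (adjusted p = 0.0903). Within the 7 relapse tumours r was 0.891 for Myh11 and 0.858 for Acta2 (exact permutation, adjusted p = 0.0232 for both). Within the 7 stable tumours it was 0.814 for Myh11 (exact permutation, adjusted p = 0.127) and 0.592 for Acta2 (adjusted p = 0.295). By rank, rho within relapse tumours was 0.786 for Myh11 (exact permutation, adjusted p = 0.072) and 0.964 for Acta2 (adjusted p = 0.00833), and within stable tumours 0.286 and 0.357 (exact permutation, adjusted p = 0.556 for both). So among relapse tumours Acta2 passed by both measures and Myh11 by r alone, and among stable tumours neither passed; the difference between the groups was not tested.

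**Figure D5:**
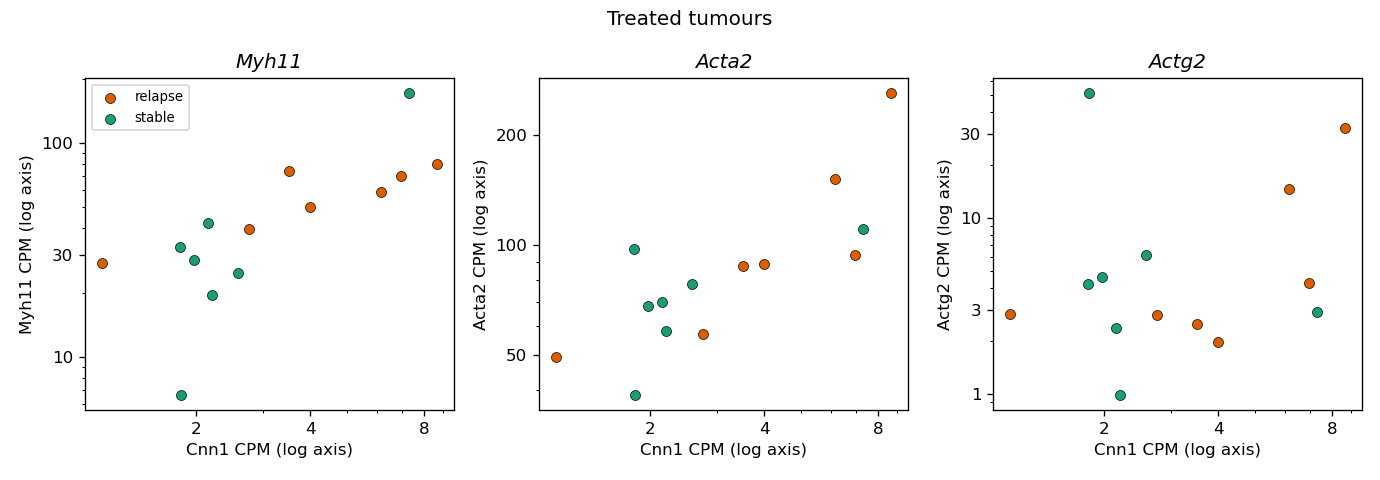
Each point is 1 of the 14 treated tumours, with Cnn1 CPM on the x axis and Myh11, Acta2 or Actg2 CPM on the y axis, all on log axes, and colours for relapse and stable. Myh11 and Acta2 go up with Cnn1 (r of 0.756 and 0.804); in the Actg2 panel the highest point, at 50.8 CPM, is stable 1 with 1.82 CPM of Cnn1.

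The genes apart in the vehicle comparison can be followed in these slopes as a description. Of 1690 apart and higher genes present in both fits, 1326 (78.5%) had a positive slope on Cnn1 in the treated tumours, with a median slope of 0.242. Of 1248 apart and lower genes 560 (44.9%) had a positive slope, with a median of -0.0369. Over all 15055 genes in both fits 48.8% were positive and the median was -0.00586. The direction seen for the higher genes was thus shared by most of them in the treated tumours, whereas the lower genes were near the average of all genes. Genes are not independent replicates, and no test is attached to these shares.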

How the data were processed

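The authors deposited 1 table of unnormalized whole-number counts per gene for the 21 tumours, made from stranded single-end reads of 50 bases per the labels' protocols. The submitters' processing notes list, with no role for each, Picard 2.9.2, STAR 2.5.2a, edgeR and SAMtools 1.3.1, and build mm10. The sources used here do not name the counter, its annotation, its strand setting or its treatment of reads with several matches, so values of near-identical, overlapping or antisense genes are uncertain. Of 24028 rows 10202 have a superfluous first cell, so cells were counted from the end of the row (25 used). Gene positions and promoters are those of RefSeq on GRCm38.p6, the assembly of mm10; 11731 of the filtered genes matched a promoter by symbol.

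Columns were matched to tumours by title. The 7 vehicle tumours were divided by the Cnn1 limit of 100. Genes were kept by edgeR's filterByExpr (15575 genes), scaled with TMM factors and fitted by the quasi-likelihood method of edgeR 4.0.16 in R 4.3.3. Because the tumours were chosen by a value from these libraries, the vehicle contrast has no p-value: a gene is apart when the sets do not overlap in CPM and the fitted difference is at least 2-fold. The standard error is the log2 difference divided by the square root of F. Printed CPM values use TMM factors over all 21 tumours, on which scale 6 of the apart genes overlap. In the 14 treated tumours the slope on log2 Cnn1 CPM (prior count 2) was tested in edgeR with group as a covariate, adjusted by the Benjamini-Hochberg method over 15399 genes and called at 0.05; DESeq2 1.42.0 was an alternative. The functions were tested on simulated data.

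The members and the 41 gene lists (754 different genes) were chosen with earlier results of these data known. Named genes were the 4 markers, 16 fixed genes, the 12 highest and 12 lowest differences among apart genes averaging a log2 CPM of 3 or more (predicted genes and antigen receptor segments left out), and up to 4 apart members with the largest difference from each list. Further list members, and the families of the closing section, were named after their values were seen. A few genes that the rule names are not reported here, though they count in the totals of their lists. The alternatives were other scalings, no filter, other fold limits, the title code as a block, and leaving out tumours; leaving out vehicle 3 and vehicle 7 together was chosen after seeing the data.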

Additional observations from a re-analysis of the deposited data

Results flagged for a closer look

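Within each set or group of 4 to 10 tumours, a named gene was flagged when the gap between its highest or lowest tumour and the nearest other tumour was a large share of the whole range of log2 CPM. Of 178 groups examined 9 were flagged, where chance alone gives about 1 in 20 (8.9). Of the 9 flags 5 were of vehicle 3, 2 of vehicle 5 and 1 each of vehicle 4 and stable 5. Most checks were within the Cnn1-low set, so this tally does not compare the groups.

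In vehicle 3 the genes were of several roles. Igfbp2, an IGF-binding protein (gap of 0.88 of the range), and Gstm1, a glutathione transferase (0.848), stood high, and the Wnt-pathway factor Tcf7 (0.856), the lactate exporter Slc16a3 (0.869) and glutathione reductase Gsr (0.866) stood low. For all 5 genes vehicle 3 lay nearer to the Cnn1-high tumours than the rest of its set did.

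In vehicle 5 the integrin Itgam of myeloid cells (0.847) stood high and Jchain, of antibody-secreting cells (0.829), low. In vehicle 4 Lce3c stood low (0.955), at 0.261 CPM beside 1.28 to 1.37 CPM. Among the stable tumours Cnn1 stood high in stable 5 (0.75), at 7.31 CPM beside 1.81 to 2.58 CPM, and Myh11 was highest there among the treated tumours, at 170 CPM.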

How the results depend on the processing

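Under DESeq2 size factors, upper quartile factors, column totals, no filter and the title code as a block, the counts of apart genes stayed within 1.5 times 1959 and 1295. They were 3387 higher and 3380 lower by non-overlap with no limit on the fold, and 909 and 513 at 4-fold, as these limits are built to give. Without both vehicle 3 and vehicle 7, 2616 genes were higher and 1959 lower, with fewer tumours to overlap. Leaving out each vehicle tumour in turn gave 1924 to 2350 higher and 1251 to 1724 lower. No named gene that was apart changed sign. The size of the difference moved by more than the spread between replicates for 10 of the 173 named genes with the title code as a block and for 15 without vehicle 7. The log2 difference of Nf1 was 0.49 under column totals.

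For the slope on Cnn1 in the treated tumours, calls were 0 positive and 1 negative with no filter, 2 and 1 with no term for group, and 85 and 91 by DESeq2; the cause was not tested. Leaving out single treated tumours gave 0 positive calls and 0 to 3 negative ones. Replicate numbers did not pair the tumours (correlations of deviations from -0.263 to 0.181 by number), and the replicate block left 0 calls, with 324 genes at an unadjusted p under 0.05. Replicate numbers cannot pair the 2 vehicle sets, which lie in 1 group; there the title code served as the block (1946 higher, 1262 lower).

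Within the stable tumours the correlation with Cnn1 was 0.814 for Myh11, 0.592 for Acta2 and -0.257 for Actg2, each over 7 tumours. Leaving out single treated tumours gave 0.704 to 0.816 for Myh11, 0.75 to 0.861 for Acta2 and -0.00356 to 0.518 for Actg2. With 3 against 4 tumours and 3 title codes, differences near 2-fold are poorly fixed, and genes at a few counts in one set have no reliable fold: 34 apart genes had a set with no count, and all 34 were at least 2-fold against a floor of 3 counts over the set.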

Other observations

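Several gene families, chosen after their values were seen, stood on one side as a whole, beside 12.6% of all genes apart and higher in the Cnn1-high set and 8.31% apart and lower. Of 13 kallikrein genes of the Klk family, skin proteases that free cornified cells, 10 passed the filter, and all 10 were lower. Their summed level was 2.06, 2.8 and 111 CPM in vehicle 2, 6 and 7 against 1024 to 1486 CPM in the Cnn1-low tumours. Of 14 small proline-rich genes (Sprr) 10 passed the filter, and 9 of these were lower. Of 21 late cornified envelope genes (Lce) 12 passed the filter, and all 12 were lower. However, 9 of them had no count in the Cnn1-high set and passed the filter only through the Cnn1-low set, which fixed their direction. With these 9 at a floor of 3 counts over the set, the median log2 difference of the 12 was -4.25. The epidermal protease gene Asprv1 was at 1.83, 1.49 and 9.31 CPM against 481, 156, 256 and 324 CPM, and Grhl3 and Dlx3, transcription factors of the epidermal barrier, had log2 differences of -3.66 and -5.62. All 3 measured serum amyloid genes (Saa, of 4) and all 4 measured interleukin-36 family genes (Il1f, of 5) were lower. Gpnmb, a glycoprotein of lipid-laden macrophages, was at 1.74, 3.63 and 38.0 CPM against 47.7, 703, 40.3 and 260 CPM.

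Of 58 measured histone genes 48 were lower and none higher, with a median of -1.8; most replication-dependent histone mRNAs carry no poly(A) tail, so poly(A) libraries capture them in part. Clustered protocadherins, which give neurons their surface identity, were higher: 14 of 14 alpha genes, 14 of 20 beta genes, and 12 of 12 and 7 of 7 genes of the gamma A and B groups. Alpha and gamma genes each share constant exons within their cluster, so their counts may not be independent. All 5 measured glutathione transferases of the Gstm class and 23 of 43 collagen genes were higher, with 1 collagen gene lower.

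Single genes outside the lists, also chosen after their values were seen, included secreted and matrix proteins. Apod (apolipoprotein D) was at 4407, 6537 and 13851 CPM against 18.9, 63.5, 37.5 and 144 CPM. Eln (elastin) was at 649, 360 and 343 CPM against 8.09, 15.3, 10.1 and 15.6 CPM, and Fmod, a collagen-binding proteoglycan, at 574, 437 and 459 CPM against 3.79, 11.6, 4.13 and 14.4 CPM. Fgb, the fibrinogen beta chain, was at 67.7, 194 and 218 CPM against 0.548, 4.25, 1.48 and 0.824 CPM. Casq2 and Ryr3, which store and release calcium in muscle, had log2 differences of 5.19 and 6.03. Within the Cnn1-low set vehicle 3 was highest for Fgb, and vehicle 5 for Apod, Eln and Fmod.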
